A study of Homo sapiens with 24 samples.

Results

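The lung, intestinal and mucin lineage genes were 37 named genes, given as a list of symbols, out of 60641 gene symbols counted in every library. They comprised 10 alveolar lung genes, 3 endoderm transcription factors, 3 intestinal transcription factors, 7 genes of the intestinal epithelium, 3 trefoil factors, 4 members of the CEACAM family and 7 mucins. Their counts were read in 24 RNA-seq libraries. A549 is a cell line from a human lung adenocarcinoma, and HCT116 one from a human colorectal carcinoma. The libraries fell into 8 groups of 3. In A549 these were wild type (WT B), a KO of the DNA-binding domain (DBD) of the noncoding transcript MSTRG.2513.6 and a KO of the DBD of MSTRG.4401.1. In HCT116 they were 2 sets of wild type (WT A and WT B), the same 2 KOs, and a KO of the DBD of MSTRG.34636.7. CRISPR/Cas9 was used for every KO, no other allele or treatment was listed, and the sources do not say whether a KO line was 1 clone. The comparisons ask whether lineage genes differed between the lines and after each DBD KO. WT B of a line was the control of both its MSTRG.2513.6 KO and its MSTRG.4401.1 KO, so those comparisons share libraries, and WT A was the control of MSTRG.34636.7 KO.

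Alveolar type II cells of the lung make surfactant, a mixture of lipids and the proteins encoded by SFTPA1, SFTPB, SFTPC and SFTPD, under the transcription factor NKX2-1. The intestinal epithelium takes its identity from CDX2 and CDX1, which switch on genes of the brush border and of cell adhesion. Mucins are heavily glycosylated proteins, of which MUC2, MUC5AC and MUC5B are secreted and form gels, while MUC1, MUC4, MUC13 and MUC16 span the cell membrane.

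Library totals ranged from 25799359 to 102261808 counts, and A549 MSTRG.4401.1 KO was the shallowest group, at 25799359 to 33205007 against 41563496 to 59466012 in A549 WT B. Values are CPM, which are counts scaled to the library total, on which 3 counts stand for 0.0293 to 0.116 CPM. In edgeR's quasi-likelihood test over all tested genes, calls required an FDR < 0.1 with |log2(fold change)| > 1, and ± after a log2 fold change is its standard error. The labels do not say that the libraries of a group came from separate cultures, so the p-values measure the spread between these libraries, which may be technical. Replicates were not duplicates, since the counts of all 24 within-group pairs differed by more than sampling noise. In A549 MSTRG.4401.1 KO the share of mitochondrial counts was 6.1% ± 2.3 (SD, n = 3), while A549 WT B had 2.12% ± 0.221 (SD, n = 3). The part of depth or mitochondrial share in the results for that KO was not tested.

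The libraries S8 and S9, labelled HCT116 MSTRG.2513.6 KO, stood apart from their group. Across genes, log2(CPM + 1) in S8 correlated at r = 0.971 to 0.996 with the A549 libraries and at 0.916 to 0.927 with the other HCT116 libraries, and in S9 at 0.972 to 0.995 and 0.916 to 0.926. CDKN2A, a cell cycle inhibitor, had 0 counts in all 9 A549 libraries, 0.53 CPM in S8 and 0.215 CPM in S9, against 36.98 to 59.6 CPM in the remaining HCT116 libraries. MTAP was at 16.5 to 25.3 CPM in A549, 20.7 in S8, 15.4 in S9 and 480 in S11, the remaining library of that KO. The labels were kept, the cause was not tested, and the comparisons that hold S8 and S9 are given with and without both.

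Most of the lineage genes were low. FABP1, a fatty acid carrier of the gut, and TFF2, a gastric trefoil factor, had 0 counts in all 24 libraries, and 14 of the 37 never passed 1 CPM. Among those, SFTPD peaked at 0.963 CPM, SLC26A3, a chloride transporter gene of the colon, at 0.939, SLC34A2, a phosphate transporter gene of type II cells, at 0.587, the water channel gene AQP5 at 0.523 and GUCY2C, the guanylin receptor gene, at 0.346. TFF3, the trefoil factor of goblet cells, had at most 4 counts, with any in 2 libraries. Over 1 CPM in at least 1 library were 5 of 10 alveolar genes, 3 of 3 endoderm factors, 2 of 3 intestinal factors, 3 of 7 intestinal epithelium genes, 1 of 3 trefoil factors, 2 of 4 CEACAMs and 7 of 7 mucins. Only 7 genes passed 1 CPM in every library, namely ABCA3, NAPSA, SOX9, GATA6, CEACAM1, MUC1 and MUC5B, and only SOX9, MUC5AC and MUC5B passed 100 CPM anywhere.

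Marker genes of the labelled tissues did not all point to that tissue. Of the alveolar genes, ABCA3 was at 76.4 to 85.3 CPM in A549 WT B and 12.7 to 15.6 CPM in HCT116 WT B. LAMP3 was lower in A549 WT B, and SFTPB and NAPSA were not called between these groups. The intestinal genes VIL1, CDH17 and LGALS4 were called higher in A549 WT B than in HCT116 WT B. NKX2-1, the lung lineage factor, had 0, 0 and 11 counts in A549 WT B, 0 counts in all MSTRG.2513.6 KO libraries of A549 and 0, 0 and 13 counts in its MSTRG.4401.1 KO. SFTPC, the surfactant protein made only by type II cells, did not exceed 22 counts in any library. CDX2, which sets intestinal identity, was present in HCT116 at 13.9 to 23.6 CPM outside S8 and S9. CDX1 had 4 counts in 1 library and none elsewhere, and the colonocyte antigen gene GPA33 had 0 counts in all A549 libraries and at most 0.466 CPM in HCT116.

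**Figure D1:**
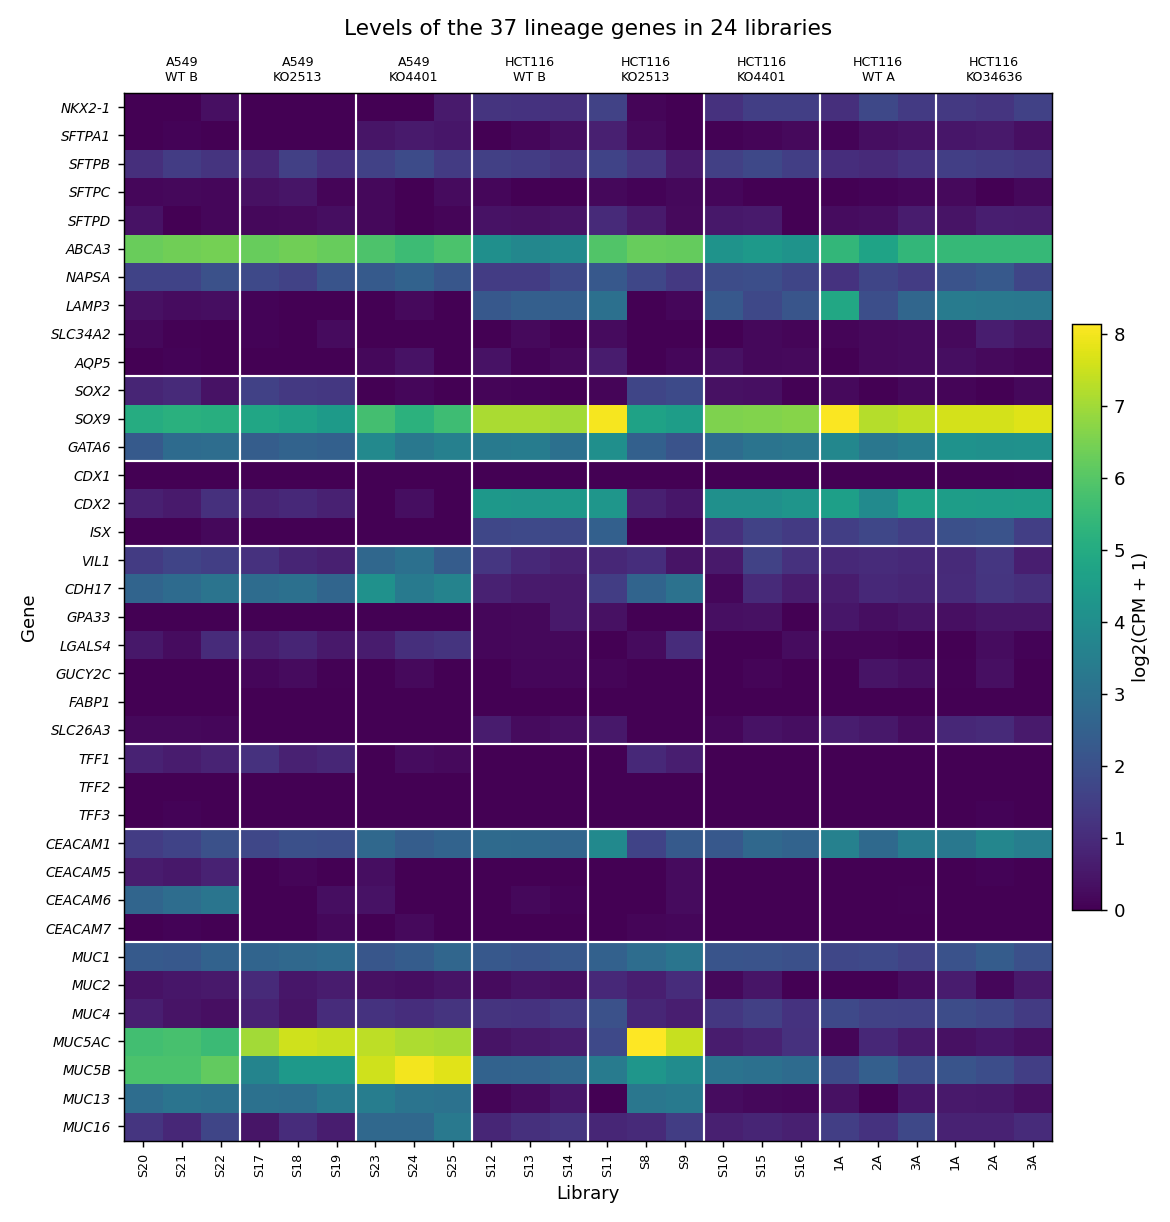
Levels of the lineage genes in the 24 libraries as log2(CPM + 1), with genes in rows by family and libraries in columns by group (KO2513 stands for the DBD KO of MSTRG.2513.6, KO4401 for that of MSTRG.4401.1, KO34636 for that of MSTRG.34636.7). S8 and S9 of HCT116 KO2513 show the A549 pattern, with CDX2 at 0.636 and 0.406 CPM and MUC5AC at 281 and 176 CPM. MUC5AC was at 46.2 to 54.0 CPM in A549 WT B and 128 to 186 CPM in A549 KO2513.

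Between the wild types of the lines, 18 of the 26 lineage genes tested were called, 11 higher and 7 lower in A549 WT B than in HCT116 WT B. Of all 27882 genes tested 17.2% were called higher and 18.5% lower. The median log2 fold change was 0.58 over the 26 genes and -0.02 over all genes tested. The secreted mucins MUC5AC and MUC5B, the adhesion gene CEACAM6, the membrane mucin MUC13 and the cadherin gene CDH17 were higher in A549, and the intestinal factors CDX2 and ISX were higher in HCT116.

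MUC5AC, the main gel-forming mucin of stomach and airway surfaces, was at 49.9, 54.0 and 46.2 CPM in A549 WT B and at 0.343, 0.468 and 0.566 CPM in HCT116 WT B. The groups did not overlap, and the log2 fold change was 7.01 ± 0.19 (FDR = 1.79e-07). MUC5B, the gel-forming mucin of airway glands, stood at 55.8, 55.8 and 72.2 CPM in A549 against 4.96, 5.02 and 5.59 CPM in HCT116, a log2 fold change of 3.82 ± 0.11 (FDR = 2.16e-07). For both secreted mucins, all A549 WT B libraries lay above all HCT116 WT B libraries. MUC13, a membrane mucin of the gut, was at 6.57, 7.75 and 7.15 CPM in A549 and at 0.0763, 0.218 and 0.399 CPM in HCT116 (log2 fold change 5.17 ± 0.44, FDR = 4.43e-05). MUC4 was the mucin that went the other way, at 0.611, 0.353 and 0.265 CPM in A549 and 1.33, 1.26 and 1.63 CPM in HCT116 (log2 fold change -1.48 ± 0.38, FDR = 0.0116). MUC2, the mucin of intestinal goblet cells, MUC1 and MUC16 were not called between the lines, with log2 fold changes of 0.89, 0.48 and 0.62. MUC2 (FDR = 0.0767) and MUC1 passed the FDR but not the fold threshold.

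CDX2 was at 19.1, 18.2 and 19.4 CPM in HCT116 WT B and at 0.645, 0.488 and 1.2 CPM in A549 WT B, where these values rest on 38, 29 and 50 counts. Its log2 fold change was -4.38 ± 0.29 (FDR = 1.21e-05). ISX, a homeobox gene of the small intestine, had 0, 0 and 5 counts in A549 WT B and 2.29, 2.51 and 2.41 CPM in HCT116 WT B (log2 fold change -5.87 ± 0.81, FDR = 0.00052). Without S22, which holds the 5 counts, ISX was at 0 in A549 WT B and the fitted value moved to -10.03. Of the 7 intestinal epithelium genes, 3 were called higher in A549. CDH17, the gene of a cadherin that links intestinal cells, was at 5.21, 6.24 and 7.77 CPM in A549 against 0.687, 0.514 and 0.482 CPM in HCT116 (log2 fold change 3.76 ± 0.22, FDR = 6.06e-06). VIL1, which encodes the brush border protein villin, and LGALS4, a galectin gene of the gut, were also called higher in A549, by log2 fold changes of 1.17 ± 0.30 and 2.35 ± 0.63. The VIL1 call was lost without the HCT116 library S14, at a log2 fold change of 0.95. Other genes of this group had lower values in A549. GPA33 had 0 counts there and 0.24 CPM in HCT116 WT B, at least 4.15-fold higher in HCT116 on a floor of 3 counts per library. SLC26A3 was at 0.117 against 0.33 CPM and was not called (log2 fold change -1.19, FDR = 0.105), and GUCY2C, at 0.00561 against 0.0752 CPM, was too low to be tested.

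Of the alveolar genes, some were called higher and some lower in A549. ABCA3, the lipid transporter that loads surfactant into lamellar bodies, was at 76.4, 81.6 and 85.3 CPM in A549 WT B and 15.6, 12.7 and 13.7 CPM in HCT116 WT B, a log2 fold change of 2.79 ± 0.08 (FDR = 2.24e-07). LAMP3, a lamellar body and lysosome membrane gene, was lower in A549, at 0.289, 0.202 and 0.241 CPM against 3.74, 4.57 and 4.34 CPM (log2 fold change -3.83 ± 0.25, FDR = 1.08e-05). NKX2-1 was also lower in A549, where 2 of the 3 libraries had 0 counts, against 1.32, 1.29 and 1.2 CPM in HCT116 (log2 fold change -3.81 ± 1.03, FDR = 0.0144). Without S22, which holds all 11 WT B counts of NKX2-1, the fitted value was -9.11. SFTPB and NAPSA were not called, and SFTPB differed by 0.02 on the log2 scale.

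Among the endoderm factors, SOX9, a factor of epithelial progenitors, was lower in A549, at 31.9, 34.6 and 33.4 CPM against 137, 138 and 129 CPM in HCT116 (log2 fold change -1.76 ± 0.06, FDR = 6.23e-07). SOX2, a factor of the foregut and airway, was low in both lines, with 46, 57 and 13 counts in A549 WT B and 4, 4 and 0 counts in HCT116 WT B, and was called higher in A549 (log2 fold change 4.13 ± 0.84, FDR = 0.00367). GATA6 was not called, at a log2 fold change of -0.37.

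Adjusted for exonic length, ABCA3 ranked first in A549 WT B at 10.4 ± 0.575 CPM per kb (SD, n = 3), ahead of SOX9 at 8.47 ± 0.352, MUC5B at 3.29 ± 0.511 and MUC5AC at 2.87 ± 0.224. The levels of MUC5B and MUC5AC lay within their combined spread. In HCT116 WT B, SOX9 ranked first at 34.3 ± 1.31 CPM per kb (SD, n = 3) and CDX2 was next at 5.38 ± 0.19.

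**Figure D2:**
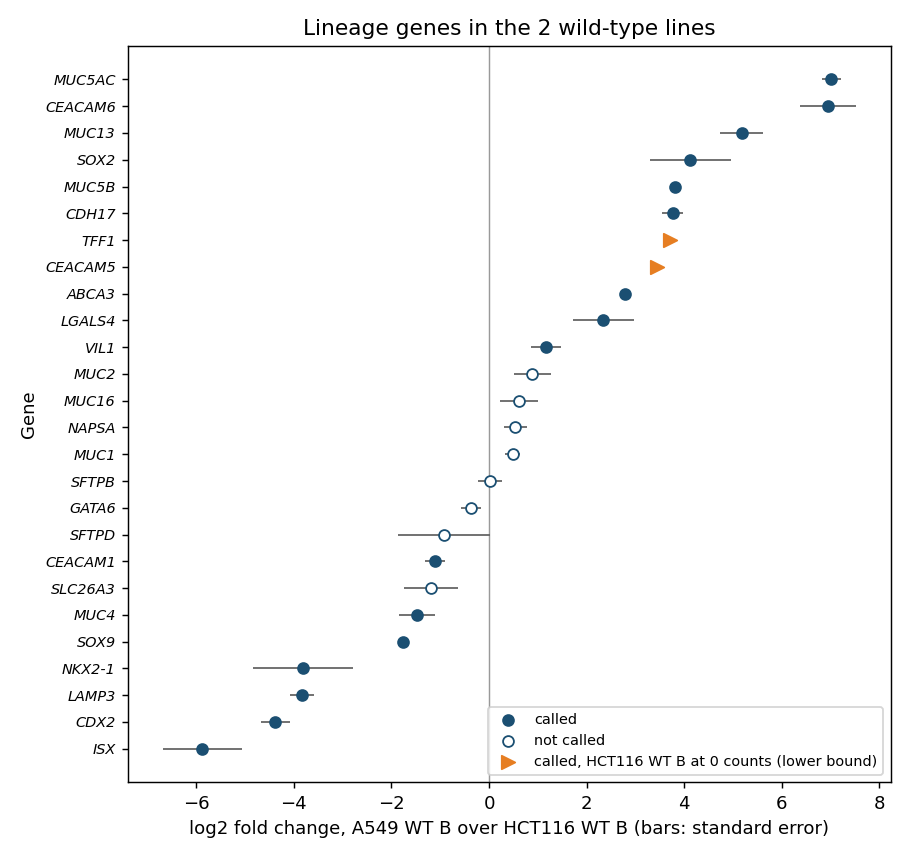
Log2 fold changes of the 26 tested lineage genes between A549 WT B and HCT116 WT B, with positive values higher in A549 and bars giving the standard error. Filled circles were called, open circles were not, and triangles mark the lower bounds for TFF1 and CEACAM5, which had 0 counts in HCT116 WT B. MUC5AC (7.01) lies at the top and ISX (-5.87) at the bottom.

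The CEACAM genes encode cell surface adhesion proteins, of which CEACAM5 is carcinoembryonic antigen. CEACAM6 was at 5.35, 6.54 and 8.04 CPM in A549 WT B and at 0, 0.125 and 0.0499 CPM in HCT116 WT B, a log2 fold change of 6.95 ± 0.57 (FDR = 3.41e-05). CEACAM5 had 32, 26 and 29 counts in A549 WT B and 0 counts in HCT116 WT B, at least 10.9-fold higher in A549 when each HCT116 library is set to 3 counts. TFF1, a trefoil factor secreted with mucin, had 42, 32 and 31 counts in A549 WT B and 0 in HCT116 WT B, at least 12.98-fold higher in A549 on that floor. CEACAM1 went the other way, at 1.73, 2.09 and 3.08 CPM in A549 and 6.1, 5.95 and 5.44 CPM in HCT116 (log2 fold change -1.10 ± 0.21, FDR = 0.00268), a call that was lost without the A549 library S20, at -0.96. CEACAM7 did not exceed 6 counts in any library.

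CEACAM5 (chr19:41708585-41730433, GRCh38, plus strand) and CEACAM6 (chr19:41750977-41772211, plus strand) are neighbours separated by 20543 bp, and CEACAM5 starts 1608 bp from CEACAM7. Their RefSeq promoter windows are printed here, since both genes were low after both A549 KOs. Capitals mark runs of at least 12 bases that the windows have in common, and exonic bases were left out. Over the full windows of 250 bases before each start, with the exonic bases that are not printed, 190 of 242 aligned bases (78.5%) were identical.
CEACAM5, chr19:41708376-41708584, plus strand: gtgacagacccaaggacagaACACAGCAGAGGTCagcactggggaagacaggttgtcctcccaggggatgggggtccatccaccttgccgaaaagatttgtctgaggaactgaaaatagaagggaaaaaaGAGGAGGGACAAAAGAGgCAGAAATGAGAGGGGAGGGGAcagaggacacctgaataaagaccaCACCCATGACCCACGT
CEACAM6, chr19:41755280-41755519, plus strand: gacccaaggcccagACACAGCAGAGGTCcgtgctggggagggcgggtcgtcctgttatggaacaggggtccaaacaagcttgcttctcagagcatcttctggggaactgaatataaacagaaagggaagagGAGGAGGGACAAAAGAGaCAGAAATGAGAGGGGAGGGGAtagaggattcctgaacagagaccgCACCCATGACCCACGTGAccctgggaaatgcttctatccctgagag
The CEACAM6 window precedes the RefSeq start, which lies inside the longer gene of the GENCODE annotation. Because the CEACAM genes resemble each other and the sources do not say how reads shared by paralogs were counted, their counts are uncertain in that respect, as are those of the mucin paralogs.

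In A549 MSTRG.2513.6 KO, 4 of the 22 lineage genes tested were called. MUC5AC was higher, and MUC5B, CEACAM5 and CEACAM6 were lower than in A549 WT B. Among all 25666 genes tested, 1.13% were called higher and 1.79% lower. The median log2 fold change was -0.01 over the 22 genes and -0.03 over all genes.

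MUC5AC was at 128, 186 and 174 CPM after this KO, against 49.9, 54.0 and 46.2 CPM in WT B, a log2 fold change of 1.69 ± 0.16 (FDR = 0.00154). All KO libraries lay above all wild-type libraries. MUC5B moved in the opposite direction, to 11.9, 19.6 and 20.1 CPM from 55.8, 55.8 and 72.2 CPM, a log2 fold change of -1.84 ± 0.20 (FDR = 0.00315). The groups did not overlap for either mucin. CEACAM6 had 0, 0 and 11 counts after the KO against 315, 389 and 334 counts in WT B, a log2 fold change of -6.55 ± 0.88 (FDR = 0.00766). Without S19, which holds the 11 counts, CEACAM6 was at 0 in the KO and the fitted value of -11.52 is no bound. CEACAM5 had 0, 4 and 0 counts against 32, 26 and 29 in WT B (log2 fold change -4.42 ± 0.95, FDR = 0.0444), and its call was lost without any 1 of the WT B libraries, at FDRs of 0.135 to 0.152. Without S18, which holds the 4 counts, its fitted value was -7.91.

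The remaining 18 tested genes were not called after this KO. ABCA3 was at 75.3, 81.4 and 74.8 CPM against 76.4, 81.6 and 85.3 CPM in WT B, a log2 fold change of -0.07 ± 0.09 (FDR = 0.763). CDX2 had 48, 52 and 31 counts against 38, 29 and 50 counts, a log2 fold change of 0.02 ± 0.38 (FDR = 0.984). SOX2 had 125, 89 and 70 counts against 46, 57 and 13, which did not overlap, but its log2 fold change of 1.25 ± 0.41 missed the threshold (FDR = 0.172). VIL1, MUC16 and LAMP3 had log2 fold changes of -1.07 ± 0.31 (FDR = 0.121), -1.16 ± 0.47 (FDR = 0.267) and -3.28 ± 1.02 (FDR = 0.139).

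**Figure D3:**
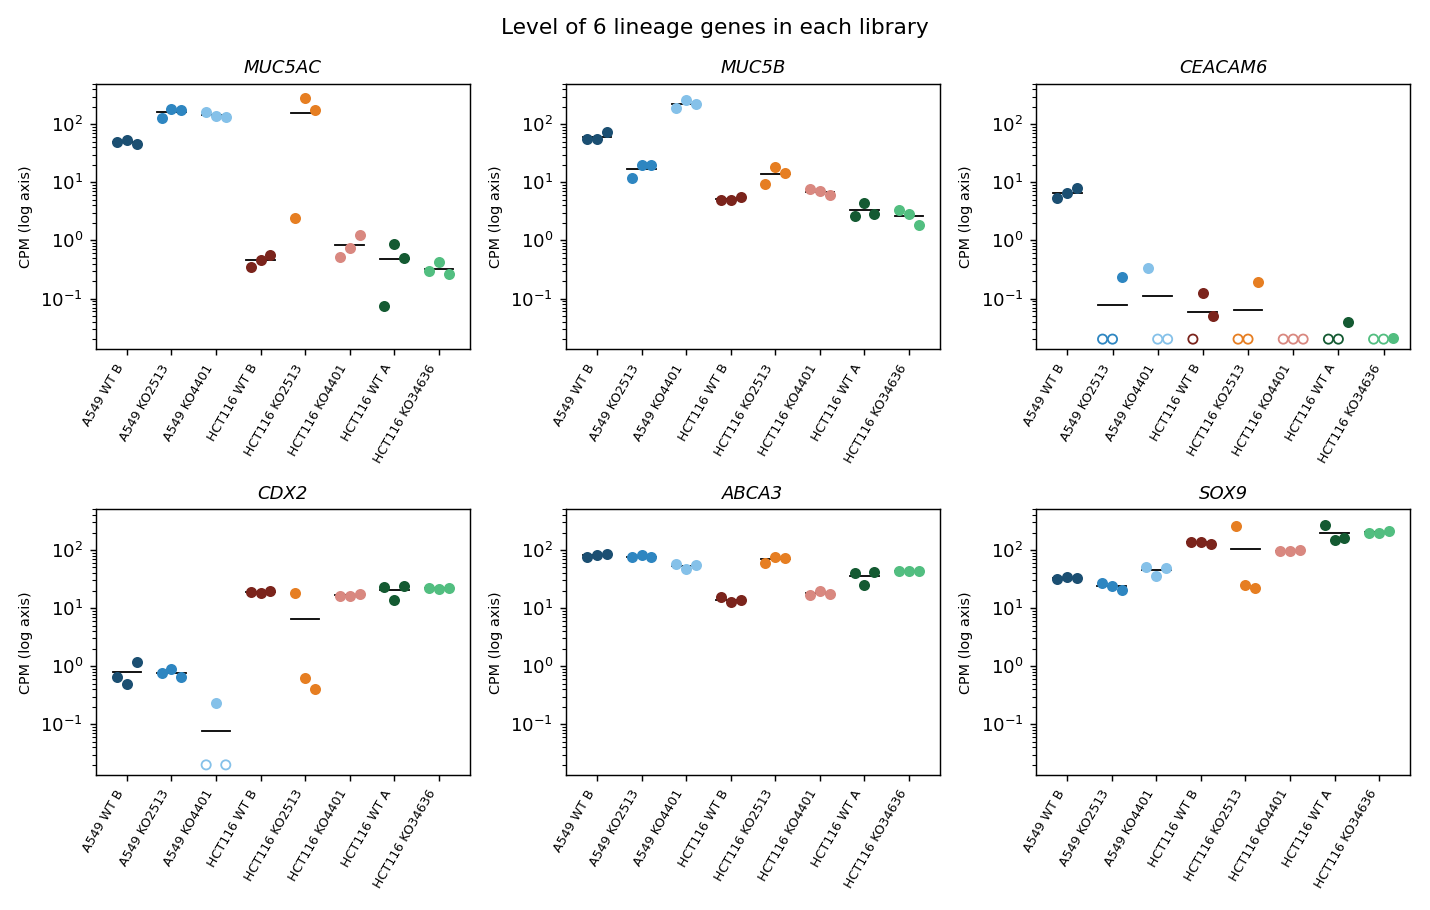
CPM of MUC5AC, MUC5B, CEACAM6, CDX2, ABCA3 and SOX9 in each library on a log axis, by group, with horizontal lines at the group means and open circles at the bottom of the axis for libraries with 0 counts. CEACAM6 lies at 5.35 to 8.04 CPM in A549 WT B and at or below 0.331 CPM in every other library.

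In A549 MSTRG.4401.1 KO, 12 of the 22 lineage genes tested were called, 7 higher and 5 lower. Of all 24979 genes tested, 11.1% were called higher and 4.32% lower. Higher were the mucins MUC4, MUC5AC, MUC5B and MUC16, the villin gene VIL1, CEACAM1 and the surfactant gene SFTPA1. Lower were the factors SOX2 and CDX2, the trefoil gene TFF1, CEACAM5 and CEACAM6. The median log2 fold change was 0.59 over the 22 genes and 0.12 over all genes, and the latter became 0.28 under upper-quartile normalization.

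Among the mucins, 4 of 7 were called higher, 0 were called lower, and the median log2 fold change of the 7 was 1.44. MUC5B was at 187, 257 and 220 CPM after the KO against 55.8, 55.8 and 72.2 CPM in WT B (log2 fold change 1.78 ± 0.15, FDR = 0.000173). MUC5AC was at 160, 140 and 132 CPM against 49.9, 54.0 and 46.2 CPM (log2 fold change 1.44 ± 0.12, FDR = 0.00016). Both secreted mucins were thus above every wild-type library. MUC16, which encodes the membrane mucin known as the CA125 antigen, was at 5.75, 5.74 and 8.84 CPM against 1.38, 0.858 and 2.29 CPM (log2 fold change 2.12 ± 0.36, FDR = 0.00404). MUC4 was at 1.29, 1.09 and 1.33 CPM against 0.611, 0.353 and 0.265 CPM (log2 fold change 1.48 ± 0.42, FDR = 0.0279), a call that was lost without the WT B library S21 (FDR = 0.107). MUC1, MUC2 and MUC13 were not called, at log2 fold changes of 0.00, -0.50 and 0.13. Summed over the 7 mucins, libraries stood at 368 to 415 CPM in this KO, 119 to 134 CPM in WT B and 154 to 220 CPM in MSTRG.2513.6 KO. Adjusted for length, MUC5B ranked first of the lineage genes in this KO at 11.9 ± 1.86 CPM per kb (SD, n = 3), with SOX9 at 11.5 ± 2.00, a difference within their spread.

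CEACAM6 had 11, 0 and 0 counts after MSTRG.4401.1 KO against 315, 389 and 334 in WT B (log2 fold change -5.78 ± 0.74, FDR = 0.00124). CEACAM5 had 8, 0 and 0 counts against 32, 26 and 29 (log2 fold change -2.70 ± 0.96, FDR = 0.0568), and this call was lost without S24, S25, S20, S21 or S22, at FDRs of 0.114 to 0.134. Without S23, which holds all these counts, both genes were at 0 in the KO, and their fitted values of -11.15 for CEACAM6 and -7.59 for CEACAM5 are no bounds. CEACAM1, some distance away on the same chromosome, went the other way, at 5.69, 4.3 and 5.07 CPM against 1.73, 2.09 and 3.08 CPM (log2 fold change 1.06 ± 0.24, FDR = 0.0125). CEACAM1 lay near the fold threshold and was not called under DESeq2 (0.96), without the filter (0.99), or without S20 (0.92), S21 (0.98) or S23 (0.95). TFF1 had 0, 5 and 4 counts against 42, 32 and 31 in WT B (log2 fold change -2.64 ± 0.79, FDR = 0.0319).

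The factors CDX2 and SOX2 were called lower on small numbers of reads. CDX2 had 0, 6 and 0 counts in the KO libraries and 38, 29 and 50 in WT B (log2 fold change -3.43 ± 1.02, FDR = 0.0307). SOX2 had 0, 3 and 0 counts against 46, 57 and 13 (log2 fold change -4.25 ± 1.03, FDR = 0.0141). Without S24, which holds all the KO counts of both genes, their fitted values were -8.09 and -7.96. Neither gene's KO and wild-type libraries overlapped in CPM. GATA6, a factor of lung and gut endoderm, was at 13.3, 8.57 and 10.8 CPM against 3.94, 6.17 and 6.52 CPM, and SOX9 was at 51.1, 36.2 and 48.1 CPM against 31.9, 34.6 and 33.4 CPM. Both passed the FDR threshold but not the fold threshold, at log2 fold changes of 0.90 ± 0.23 (FDR = 0.0182) and 0.36 ± 0.14 (FDR = 0.0802), and GATA6 passed both without S24 (1.04) and under upper-quartile normalization (1.07).

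VIL1 was at 5.57, 6.94 and 4.15 CPM after this KO against 1.68, 2.17 and 1.83 CPM in WT B (log2 fold change 1.47 ± 0.24, FDR = 0.00354). CDH17 was at 16.3, 9.15 and 11.5 CPM against 5.21, 6.24 and 7.77 CPM, with a log2 fold change of 0.87 ± 0.23 (FDR = 0.0207) that stayed under the fold threshold. Of the alveolar genes, SFTPA1 was called higher on 13, 13 and 11 counts against 0, 3 and 0 (log2 fold change 4.28 ± 0.97, FDR = 0.01), with a fitted value of 6.97 without S21, which holds the 3 counts of WT B. ABCA3 was at 56.8, 47.2 and 56.1 CPM against 76.4, 81.6 and 85.3 CPM, below every wild-type library, with a log2 fold change of -0.68 ± 0.11 (FDR = 0.00304) under the fold threshold. NAPSA, a protease gene that processes surfactant protein B, had a log2 fold change of 0.70 ± 0.23 (FDR = 0.0479), and SFTPB one of 0.48 (FDR = 0.229). In bulk libraries, fewer cells expressing a gene and less RNA of it per cell cannot be told apart.

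The comparisons of the A549 KOs with WT B share their control libraries, so the KOs, which share no library with each other, were also compared directly. In this comparison 9 of 20 lineage genes tested were called, 5 higher and 4 lower in MSTRG.4401.1 KO than in MSTRG.2513.6 KO, where 10.9% of the 25161 genes tested were called higher and 5.75% lower. MUC5B had the lowest FDR, at 187, 257 and 220 CPM against 11.9, 19.6 and 20.1 CPM (log2 fold change 3.56 ± 0.22, FDR = 3.54e-05). MUC5AC was at 160, 140 and 132 CPM against 128, 186 and 174 CPM, ranges that overlapped, with a log2 fold change of -0.31 ± 0.15 (FDR = 0.16). The KOs thus differed in MUC5B, while no difference was called in MUC5AC.

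MUC16 was also higher in MSTRG.4401.1 KO than in MSTRG.2513.6 KO, at 5.75, 5.74 and 8.84 CPM against 0.391, 1.05 and 0.556 CPM (log2 fold change 3.22 ± 0.40, FDR = 0.00095). VIL1 was at 5.57, 6.94 and 4.15 CPM against 1.22, 0.804 and 0.642 CPM (log2 fold change 2.47 ± 0.33, FDR = 0.00129). GATA6 was at 13.3, 8.57 and 10.8 CPM against 4.24, 5.07 and 4.62 CPM (log2 fold change 1.09 ± 0.22, FDR = 0.00788), a call lost without the library S23, at 0.93. In these genes every MSTRG.4401.1 KO library was above every MSTRG.2513.6 KO library. SFTPA1 was at 0 counts in MSTRG.2513.6 KO and at least 8.04-fold higher in MSTRG.4401.1 KO on the floor of 3 counts per library. SOX2 (log2 fold change -5.58 ± 0.78, FDR = 0.00146), CDX2 (-3.52 ± 0.97, FDR = 0.0261) and TFF1 (-3.17 ± 0.78, FDR = 0.0174) were lower. Without S24 the fitted values of SOX2 and CDX2 were -9.29 and -8.18. MUC2 was lower by -1.26 ± 0.51 (FDR = 0.0966), a call that held in 1 of the 4 other settings and was lost without S17, S18, S23, S24 or S25, at FDRs of 0.11 to 0.368.

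**Figure D4:**
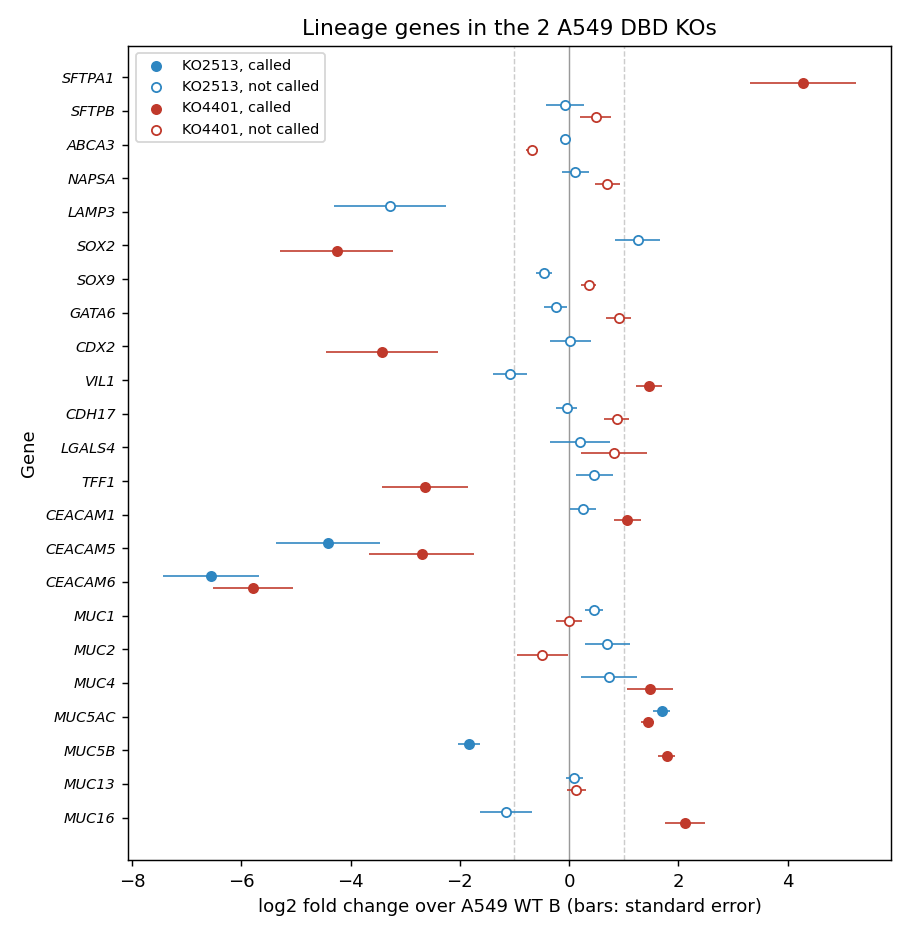
Log2 fold changes against A549 WT B of the tested lineage genes in the 2 KOs, with bars giving the standard error. The KOs share the WT B libraries. MUC5B lies at -1.84 for MSTRG.2513.6 and 1.78 for MSTRG.4401.1, while CEACAM6 lies at -6.55 and -5.78.

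MUC2, MUC5AC (chr11:1157953-1201138, GRCh38, plus strand) and MUC5B (chr11:1223066-1262172, plus strand) lie in a row, with gaps of 47441 bp and 21927 bp. Of the 9 genes that lie at least in part within 300 kb of MUC5AC, all were tested. MUC5AC was itself called in both A549 KOs, so the counts called around it include it and are no test. Over all genes tested, 1.13% were called higher and 1.79% lower in MSTRG.2513.6 KO, and 11.1% and 4.32% in MSTRG.4401.1 KO. In MSTRG.2513.6 KO, MUC5AC and MUC5B were the 2 called, in opposite directions. In MSTRG.4401.1 KO, 3 were called, all higher, namely MUC6, MUC5AC and MUC5B, where MUC6 is the gel-forming mucin of gastric glands (log2 fold change 1.30 ± 0.40, FDR = 0.0372). The flanking genes AP2A2 and BRSK2 had log2 fold changes of 0.12 and 0.31 in MSTRG.2513.6 KO and 0.09 and 0.20 in MSTRG.4401.1 KO, none of them called. TSPAN4 and TOLLIP passed the FDR but not the fold threshold in MSTRG.2513.6 KO, at 0.43 (FDR = 0.0497) and 0.38 (FDR = 0.0951). In MSTRG.4401.1 KO, TSPAN4 was at -0.27 (FDR = 0.0816) and TOLLIP at -0.16 (FDR = 0.349).

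Around CEACAM6, 9 of the 15 genes within 300 kb were tested. CEACAM6 was likewise called in both A549 KOs, so these counts are no test either, and the shares over all genes are those given for MUC5AC. In each A549 KO the 2 called were CEACAM5 and CEACAM6, both lower. In MSTRG.2513.6 KO the neighbours ARHGEF1 and RABAC1 had log2 fold changes of 0.00 (FDR = 0.993) and 0.27 (FDR = 0.226). In MSTRG.4401.1 KO, ARHGEF1 had a log2 fold change of -0.17 (FDR = 0.342), while RABAC1 stood just under the fold threshold, at -0.9994 ± 0.18 (FDR = 0.00467).

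**Figure D5:**
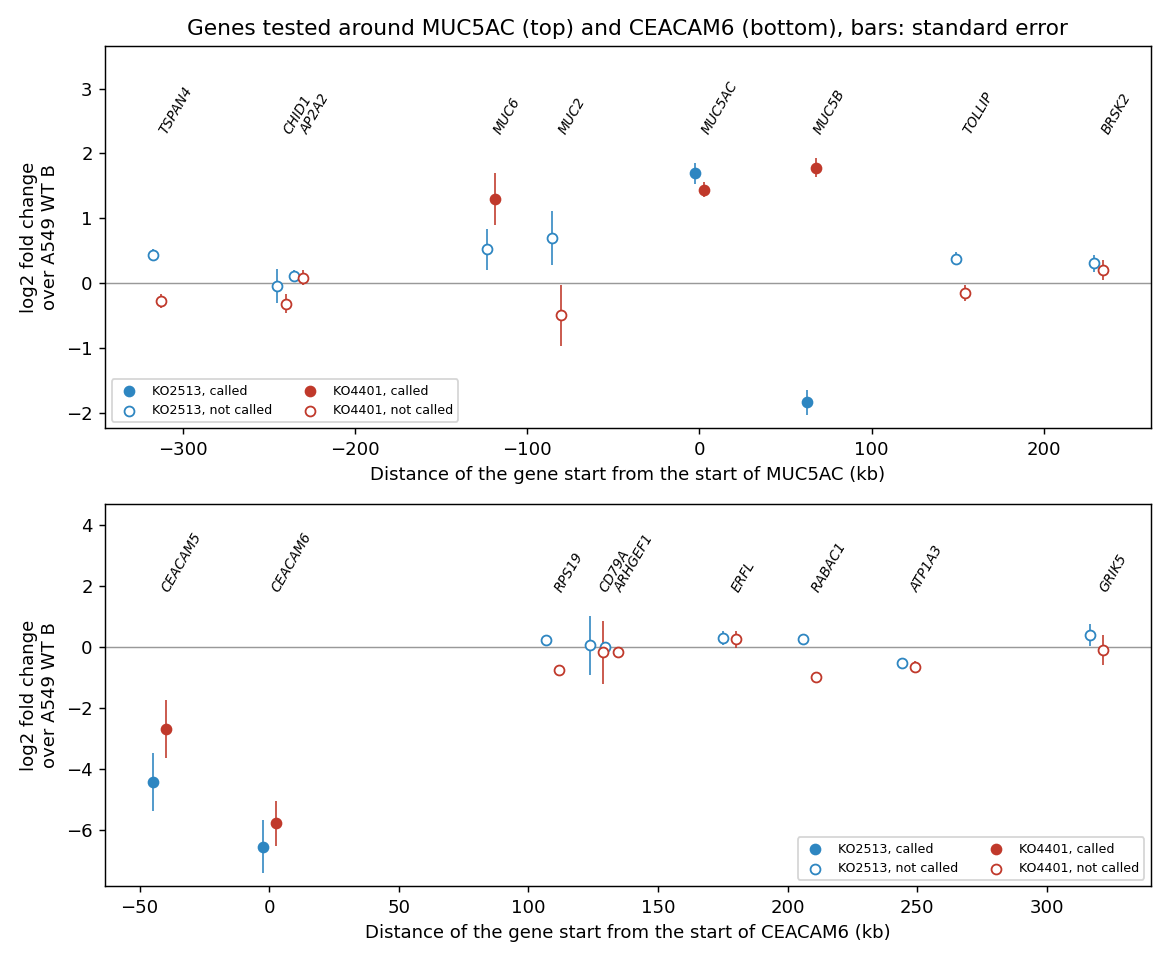
Log2 fold changes of tested genes around MUC5AC (top) and CEACAM6 (bottom) in the A549 KOs, plotted by distance in kb from the start of the central gene, with bars giving the standard error. The called genes are CEACAM5 and CEACAM6 at the bottom and, at the top, MUC5AC and MUC5B, with MUC6 in MSTRG.4401.1 KO.

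In HCT116 MSTRG.2513.6 KO as labelled, 1 of 21 lineage genes tested was called, where 0.66% of 26374 genes were called higher and 0.273% lower. By edgeR 7 of the 21 had an unadjusted p under 0.05, and DESeq2 called 9. The called gene was ABCA3, at 59.5 CPM in S11, 75.3 in S8 and 73.9 in S9 against 15.6, 12.7 and 13.7 CPM in HCT116 WT B (log2 fold change 2.54 ± 0.25, FDR = 0.0657). All KO libraries were above WT B. Without S8, S9 or any 1 of the WT B libraries the call of ABCA3 was lost, at FDRs of 0.305 to 0.425. It was also lost without the filter on low counts (FDR = 0.12) and with WT A as the control, at a log2 fold change of 1.15 (FDR = 0.147). Without S11, S8 and S9 alone stood for the KO, and 15 of 23 lineage genes tested were called, 9 higher and 6 lower. No share over all genes is given for that fit or for DESeq2. In other genes the libraries labelled S8 and S9 lay far from S11. MUC5AC was at 2.48 CPM in S11, 281 in S8 and 176 in S9, against 0.343, 0.468 and 0.566 CPM in WT B (log2 fold change 8.71 ± 1.87, FDR = 0.12). CDX2 was at 18.2 CPM in S11, 0.636 in S8 and 0.406 in S9, against 19.1, 18.2 and 19.4 CPM (log2 fold change -1.62 ± 1.31, FDR = 0.533). SOX9 was at 260, 24.7 and 21.9 CPM in the same order. Over the lineage genes S8 and S9 correlated at r = 0.893 to 0.994 with the A549 libraries and at 0.428 to 0.586 with the other HCT116 libraries. With the A549 MSTRG.2513.6 KO libraries alone, r was at least 0.9911 for S8 and 0.9847 for S9.

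Without S8 and S9 the KO was represented by S11 alone, and the lone library was taken to vary like the wild type. Of 25 lineage genes then tested, 7 were called, all higher, where 5.2% of 30219 genes were called higher and 3.49% lower. ABCA3 was at 59.5 CPM against 12.7 to 15.6 CPM (log2 fold change 2.00 ± 0.11, FDR = 0.000796). CEACAM1 was at 13.5 CPM against 5.44 to 6.1 CPM (1.12 ± 0.16, FDR = 0.00643), and CDH17 at 1.76 against 0.482 to 0.687 CPM (1.57 ± 0.36, FDR = 0.0318). MUC5AC was at 2.48 against 0.343 to 0.566 CPM (2.33 ± 0.37, FDR = 0.0101), so its difference was smaller than with S8 and S9. MUC4, MUC2 and SFTPD, a collectin gene of surfactant, were called with log2 fold changes of 1.02 ± 0.27, 1.80 ± 0.53 and 1.51 ± 0.45. CDX2, at a log2 fold change of -0.14 (FDR = 0.407), was not among the genes called. SOX9 passed the FDR but not the fold threshold, at 0.86 (FDR = 0.00117). With WT A as the control of S11 alone, 0 lineage genes were called, and ABCA3 was at 0.61 (FDR = 0.56). In S11 the fibroblast markers summed to 74.1 CPM against 28.1 to 30.7 CPM in WT B, and the endothelial markers to 9.44 against 2.54 to 3.41 CPM, and their part in these calls was not tested.

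In HCT116 MSTRG.4401.1 KO, edgeR called 0 of the 22 lineage genes tested, where 0.996% of 26615 genes were called higher and 1.62% lower. An unadjusted p under 0.05 was found for 6, namely ABCA3, CDX2, ISX, MUC16, MUC5B and SOX9, and DESeq2 called 0. SOX9 was at 94.3, 95.1 and 100 CPM against 137, 138 and 129 CPM in WT B, below all of them, with a log2 fold change of -0.50 ± 0.05 (FDR = 0.000738) under the fold threshold. ABCA3 was at 16.99, 19.5 and 17.2 CPM against 15.6, 12.7 and 13.7 CPM, a log2 fold change of 0.34 ± 0.10 (FDR = 0.0803). MUC5AC was at 0.523, 0.727 and 1.22 CPM against 0.343, 0.468 and 0.566 CPM, which overlapped (log2 fold change 0.81 ± 0.38, FDR = 0.235). CDX2 was at 16.1, 15.9 and 17.8 CPM against 19.1, 18.2 and 19.4 CPM (log2 fold change -0.20 ± 0.08, FDR = 0.14).

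MSTRG.34636.7 KO was made in HCT116 alone and was compared with WT A. By edgeR 0 of 27 lineage genes tested were called, where 0.729% of 28816 genes were called higher and 0.607% lower. GATA6, MUC1, MUC16 and NAPSA were the 4 with an unadjusted p under 0.05, and DESeq2 called 1, MUC16. MUC16 was at 0.698, 0.721 and 1.02 CPM after the KO and at 1.88, 1.28 and 2.42 CPM in WT A, below all of them (log2 fold change -1.21 ± 0.34, FDR = 0.163). GATA6 was at 16.9, 15.9 and 16.2 CPM against 12.6, 8.35 and 9.92 CPM, above all of them (log2 fold change 0.66 ± 0.19, FDR = 0.177). ABCA3 was at 43.2, 42.7 and 43.1 CPM against 40.8, 25.4 and 41.1 CPM (log2 fold change 0.25 ± 0.21).

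The wild types of HCT116 differed from each other in 1 of the 23 lineage genes tested, where 3.16% of 27280 genes were called higher and 3.9% lower in WT A than in WT B. ABCA3 was at 40.8, 25.4 and 41.1 CPM in WT A and 15.6, 12.7 and 13.7 CPM in WT B (log2 fold change 1.35 ± 0.22, FDR = 0.00702). DESeq2 called 1 as well. ABCA3 differed between WT A and WT B, so the choice of the wild type bears on its comparisons. Over all libraries labelled HCT116 it ranged from 12.7 CPM to 75.3 CPM, the highest being S8, which lies with the A549 libraries. With WT A as control, MSTRG.4401.1 KO had 4 of 20 lineage genes tested called. MUC5B was higher (log2 fold change 1.07), and ABCA3 (-1.02), MUC16 (-1.47) and SOX9 (-1.02) were lower. With WT B as control, MSTRG.34636.7 KO had 5 of 25 called, all higher. They were ABCA3 (1.60), CDH17 (1.04), LAMP3 (1.05), SLC26A3 (1.21) and SLC34A2 (2.44). No share over all genes is given for either fit. LAMP3 ranged from 2.89 to 28.3 CPM within WT A.

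The effect of each KO was compared between the lines by an interaction. For MSTRG.4401.1 KO, 11 of 29 lineage genes tested differed at FDR < 0.1, 7 with a higher and 4 with a lower effect in A549, where 26.9% of 30134 genes differed in either direction. MUC16, at a log2 fold change of 2.12 in A549 and -0.77 in HCT116, differed by 2.86 ± 0.49 (FDR = 0.00207). MUC5B, at 1.78 and 0.41, differed by 1.34 ± 0.18 (FDR = 0.000507). For MUC5AC, at 1.44 and 0.81, the difference of 0.60 ± 0.33 did not pass (FDR = 0.238). CDX2, called lower in A549 on few counts, differed by -3.29 ± 0.79 (FDR = 0.0116), and SOX2 by -6.34 ± 1.63 (FDR = 0.0152). Without S24 the fitted differences of CDX2 and SOX2 were -8.18 and -10.3. SOX9, with 0.36 in A549 and -0.50 in HCT116, differed by 0.83 ± 0.17 (FDR = 0.00533), and ABCA3, with -0.68 and 0.34, by -1.05 ± 0.15 (FDR = 0.000656).

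For MSTRG.2513.6 KO, 6 of 26 lineage genes tested differed between the lines with S8 and S9 as labelled, all with a lower effect in A549, where 9.88% of 29852 genes differed. They were ABCA3, CDH17, TFF1, CEACAM5, MUC5AC and MUC5B. Without S8 and S9, 7 of 32 differed, 1 higher and 6 lower, where 10.5% of 33636 genes did. ABCA3 differed by -2.57 with them and -2.08 without, CDH17 by -3.38 and -1.61, and MUC5B by -3.48 and -2.63. The other genes that differed without S8 and S9 were SOX9 (-1.33), LAMP3 (-3.93), SLC26A3 (-6.17) and MUC13 (6.65). SLC26A3 had 0 counts in A549 MSTRG.2513.6 KO and MUC13 had 0 counts in S11, so their fitted values are no bounds. MUC5AC, TFF1 and CEACAM5 passed with S8 and S9 but not without them. MUC5AC differed by -6.96 with them and by -0.64 without (FDR = 0.317). TFF1 and CEACAM5 had 0 counts in all HCT116 libraries of this comparison other than S8 and S9, so no difference between the lines can be read for them without both.

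Other genes of these lineages were read beside the 37. In A549 MSTRG.2513.6 KO, of 21 other endoderm factors 16 were tested, and 1 was called higher and 3 lower. Over all 25666 genes tested there, 1.13% were called higher and 1.79% lower. EHF, an epithelial ETS factor, was at 18.1, 15.3 and 9.95 CPM against 2.68, 2.07 and 2.26 CPM in WT B (log2 fold change 2.63 ± 0.28, FDR = 0.00291). HNF4G, a hepatocyte nuclear factor that also acts in the gut, was lower, by a log2 fold change of -1.66. Of 9 other intestinal genes tested 1 was higher and 2 were lower, and the higher one was ANPEP, a brush border peptidase gene, at 58.1, 57 and 54.5 CPM against 12.4, 11.8 and 12.5 CPM (log2 fold change 2.21, FDR = 0.000112). FCGBP, which encodes a protein bound to gel-forming mucins, was the gene called among 5 tested stem and secretory cell genes, with a log2 fold change of 1.54 (FDR = 0.0218). Of 8 other lung genes, 5 other mucins and 2 other CEACAMs tested, 0 were called.

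In A549 MSTRG.4401.1 KO, 3 of 5 other mucins tested were called higher, namely MUC20, MUC6 and OVGP1, with log2 fold changes of 1.31, 1.30 and 1.16. Over all 24979 genes tested there, 11.1% were called higher and 4.32% lower. MUC20 was at 2.5, 4.42 and 3.09 CPM against 1.51, 1.08 and 1.2 CPM. Of 16 other endoderm factors tested, 2 were higher and 3 lower. HNF4G was higher, with a log2 fold change of 1.22, and FOXA1, a pioneer factor of endoderm, was lower, with one of -1.20. Of 9 other intestinal genes tested 3 were higher and 3 lower. They included A1CF, an RNA-editing cofactor gene, at 18.1, 11 and 13 CPM against 0.968, 1.38 and 1.44 CPM (log2 fold change 3.40), MYO1A, a brush border myosin gene (2.85), and SLC26A2, a sulfate transporter gene (-2.51). Of 8 other lung genes 3 were lower, among them CAV1 and CAV2, the caveolin genes of flat alveolar cells, and TP63, a basal cell factor, with log2 fold changes of -1.94, -1.04 and -2.46. EPHB2, a receptor gene of crypt progenitors, was lower by -1.92.

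In HCT116 MSTRG.4401.1 KO the called genes of these lists included EHF (log2 fold change -1.19), GRHL2, a factor of epithelial junctions (-1.13), the carbonic anhydrase gene CA2 (-2.24) and MUC12 (-1.04), all lower. AGER, a receptor gene of flat alveolar cells, was lower in WT A than in WT B, at 0.32, 0.937 and 0.773 CPM against 6.83, 6.79 and 7.89 CPM (log2 fold change -3.41).

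Between the wild-type lines, 17.2% of all 27882 genes tested were called higher and 18.5% lower in A549 WT B. Of 20 other endoderm factors tested 17 were called, 9 higher and 8 lower, as were 7 of 12 other intestinal genes (3 higher, 4 lower). Of 6 stem and secretory cell genes 3 were higher and 1 was lower, and of 5 other mucins 3 were lower. AGR2, which encodes a protein folding factor of mucin-secreting cells, was at 18.5, 21.2 and 21 CPM in A549 and at 0.0763, 0.203 and 0.166 CPM in HCT116 (log2 fold change 7.29). PROM1, a progenitor surface marker gene, was lower in A549, with counts in 1 of 3 libraries there and 32.4, 29.4 and 31.4 CPM in HCT116. FOXA2 was at 40.7, 43.2 and 37.2 CPM in A549 WT B and at 0 counts in HCT116 WT B, at least 787-fold higher on the floor of 3 counts per library. GRHL2 was at 0 counts in A549 WT B and at 54.2, 51.1 and 52 CPM in HCT116 WT B, at least 906-fold higher in HCT116 WT B. These factors mark S8 and S9 too, with FOXA2 at 52.1 and 47.6 CPM there and 0.138 CPM in S11.

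The promoter windows of CDX2 and MUC13 are printed since the genes lay on opposite sides between the lines. Of the 37 genes 25 had a RefSeq window, and these were searched on both strands for short motifs over the 250 bases before the start. Capitals mark the motif matches.
CDX2, chr13:27969316-27969565, minus strand: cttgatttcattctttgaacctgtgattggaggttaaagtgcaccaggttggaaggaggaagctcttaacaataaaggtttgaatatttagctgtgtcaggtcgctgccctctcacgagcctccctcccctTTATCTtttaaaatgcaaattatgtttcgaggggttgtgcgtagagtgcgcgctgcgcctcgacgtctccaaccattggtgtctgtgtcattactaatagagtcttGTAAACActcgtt
MUC13, chr3:124934752-124935001, minus strand: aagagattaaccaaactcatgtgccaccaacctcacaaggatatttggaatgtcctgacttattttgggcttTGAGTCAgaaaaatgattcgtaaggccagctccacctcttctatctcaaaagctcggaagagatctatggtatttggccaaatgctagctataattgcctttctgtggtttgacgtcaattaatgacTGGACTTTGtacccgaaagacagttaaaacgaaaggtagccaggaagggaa
The CDX2 window holds 1 FOXA motif (TGTTTAC, reverse strand) and 1 GATA motif (AGATAA, reverse strand), which stand in 2.98% and 9.17% of 35116 promoter windows of that length. The MUC13 window holds 1 HNF4 motif (CAAAGTNCA, reverse strand) and 1 AP-1 motif (TGANTCA), which stand in 0.94% and 6.57% of them. The CDX motif TTTATGG was in 2 of the 25 windows, those of FABP1 and MUC2, and in 2.3% of all windows. The MUC13 window precedes the RefSeq start, which lies inside the longer GENCODE gene (chr3:124905442-124953819). A match is a description of the letters and not a binding site.

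Markers of other cell types were summed per library. Leukocyte markers summed to at most 4.34 CPM in every library. Endothelial markers summed to at most 0.391 CPM in A549, to 0.263 and 0.36 CPM in S8 and S9, and to 2.39 to 9.44 CPM in the remaining HCT116 libraries, the highest being S11. Fibroblast markers summed to 26.1 to 36.5 CPM in A549 WT B, 21.4 to 25.3 CPM in its MSTRG.4401.1 KO and 8.2 to 15.3 CPM in its MSTRG.2513.6 KO. In HCT116 they summed to 9.56 and 10.2 CPM in S8 and S9 and to 28.1 to 74.1 CPM elsewhere, again highest in S11. COL1A1, a collagen gene that made up most of the sum in A549, was lower after MSTRG.2513.6 KO there (log2 fold change -1.45, FDR = 0.0161). The part of these markers in the results was not tested.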

How the data were processed

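RNA of 24 libraries was rRNA-depleted and sequenced from a directional kit. The submitters' processing notes name Trim Galore 0.6.6, FastQC 0.11.9, HISAT2 2.2.1 and GRCh38, and the paper's methods name StringTie for quantification. The authors deposited whole-number counts per gene symbol, not normalized and not pooled, and whether counting used the strand is not given in the sources used here. Samples were grouped by their labels. Symbols listed in part of the libraries (3) were left out. They were listed in WT A and MSTRG.34636.7 KO alone, at 60644 symbols per library against 60641 in all other libraries. Comparisons of these 2 groups with other groups cross that difference in the deposited counts, and its part was not tested. The genes, the lists and the tests were chosen with earlier results of these data known.

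From the counts, each pair of groups was fitted with edgeR 4.0.16 (limma 3.58.1, R 4.3.3), using filterByExpr, TMM, glmQLFit and glmQLFTest with Benjamini-Hochberg adjustment over all tested genes. Interactions were fitted over 12 libraries and called at FDR < 0.1 alone. The standard error is the unshrunken log2 fold change divided by the square root of F. CPM is relative to the library total. A fold change against a group at 0 counts is a bound against 3 counts per library. These bounds allow for counting error alone, and reads were not collapsed to single molecules in the sources' description. All 37 genes are accounted for, and the rule names every called gene where at most 10 were called and otherwise the 5 largest changes in each direction (here all called genes of the 37 in the pairwise comparisons are named). Other lists give up to 3 called genes per comparison, and some of their genes are not reported here. An exact permutation test of 3 against 3 libraries cannot go below p = 0.1, so none was run. The scripts were tested on simulated data. Alternatives were upper-quartile normalization, no filter, DESeq2 1.42.0, all libraries of a line in one fit, the other HCT116 wild type, S8 and S9 left out, the replicate number as a block, and each library left out. S8 and S9 left out with WT A as control was chosen after seeing the data. Positions came from GENCODE 44 and promoter windows from RefSeq on GRCh38.p14. The authors' lists of predicted targets were not used here.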

Additional observations from a re-analysis of the deposited data

Results flagged for a closer look

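The effect of MSTRG.4401.1 KO differed between A549 and HCT116 by the interaction test in 11 of 29 lineage genes tested. Of all 30134 genes tested, 26.9% differed in either direction. Values are the log2 effect in A549 minus that in HCT116. Positive differences were those of SFTPA1 (4.65), MUC16 (2.86), MUC5B (1.34), CEACAM1 (1.33), MUC4 (1.31), GATA6 (1.07) and SOX9 (0.83). Negative differences were those of SOX2 (-6.34), SLC26A3 (-5.05), CDX2 (-3.29) and ABCA3 (-1.05). SLC26A3, a chloride transporter gene of the colon, had 0 counts in A549 MSTRG.4401.1 KO and at most 8 counts in A549 WT B, so its fitted value depends on the prior count and is no bound. SFTPA1, SOX2 and CDX2 also rest on few counts in A549, and 1 library moved each, to 7.75 for SFTPA1 without S21 and to -10.3 and -8.18 for SOX2 and CDX2 without S24. The SFTPA1 difference missed the threshold without S10, S13, S14, S15, S20, S22 or S24 (FDR = 0.11 to 0.199), and that of MUC4 without S10, S12, S14, S16, S21, S22, S23 or S25 (FDR = 0.1 to 0.15).

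The effect of MSTRG.2513.6 KO, with S8 and S9 under their labels, differed between the lines in 6 of 26 lineage genes tested. Of all 29852 genes tested, 9.88% differed in either direction. The 6 differences were -9.10 in CEACAM5, -7.38 in TFF1, -6.96 in MUC5AC, -3.48 in MUC5B, -3.38 in CDH17 and -2.57 in ABCA3. CEACAM5 and TFF1 had 0 counts in HCT116 WT B, so their fitted values are no bounds. All 6 include the libraries S8 and S9, which lie with the A549 libraries. Without both, the differences were -0.64 in MUC5AC, -2.63 in MUC5B, -1.61 in CDH17 and -2.08 in ABCA3, the first of which no longer passed (FDR = 0.317). TFF1 and CEACAM5 then had 0 counts in the HCT116 libraries, so they give no difference.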

How the results depend on the processing

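The number of lineage genes called stayed within 1.5 times in every alternative and leave-out for A549 MSTRG.2513.6 KO (3 to 6, against 4), A549 MSTRG.4401.1 KO (9 to 14, against 12), the wild types of the lines (17 to 22, against 18), the A549 KOs against each other (7 to 9, against 9) and the MSTRG.4401.1 interaction (9 to 12, against 11). HCT116 MSTRG.2513.6 KO, with 1 gene called, had 0 without the filter, 9 with DESeq2, 7 in one fit of the line, 7 without S8 and S9 and 0 without them against WT A, and 0 to 15 with 1 library left out. HCT116 MSTRG.4401.1 KO, with 0, had 4 with WT A as control, where ABCA3 reversed to -1.02. MSTRG.34636.7 KO, with 0, had 1 with DESeq2, 5 with WT B as control, 1 in one fit without S8 and S9, and 0 to 1 with 1 library left out. WT A against WT B, with 1, had 1 to 2 with 1 library left out. The MSTRG.2513.6 interaction, with 6, had 2 to 15. Without S8 and S9 the fitted value of TFF1 was 0.48, but TFF1 was then at 0 counts in all HCT116 libraries of the fit, so this is no reversal. The cause of these changes was not tested. No share over all genes is given for these alternatives, other than S8 and S9 left out, so their counts cannot be set against all genes. Of 870 alternative values of single genes, 772 kept direction and side of the threshold, 86 lost the call, 10 gained one and 2 changed sign, those of ABCA3 and TFF1 above. With the replicate number as a block, MSTRG.34636.7 KO had 0 calls. Libraries with the same number correlated at r = 0.011 to 0.036 in their deviations, all under 0.1, and each correlated best with its own number. With 3 libraries per group, these values cannot show whether libraries of the same number were paired. Depth limits genes under about 1 CPM, where 1 library can decide a call.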
